A study of Mus musculus with 6 samples.

Results

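The NRF2 and BACH1 system was followed here through 10 genes: the activator gene Nfe2l2, its inhibitor Keap1, the repressor gene Bach1, the shared partner Mafg, and the target genes Nqo1, Gclm, Gclc, Txnrd1, Srxn1 and Hmox1. The members were all probe sets annotated to exactly 1 of these symbols, which gave 21 of the 45037 probe sets on the array and 10 of the 18193 genes named. All 21 were tested, since no filter on low values was applied. RNA came from erythroid progenitors sorted as CD71+Ter119+ from the bone marrow of 6 female mice aged 6 weeks and each mouse gave 1 Affymetrix array. The 3 knockout mice were Bcl11a fl/fl EpoR-Cre+, in which Cre recombinase expressed from the erythropoietin receptor gene removes the floxed part of Bcl11a, the gene of a transcriptional repressor of embryonic globins. The 3 control mice were Bcl11a +/+, and no Cre is named for them, so Cre and the loss of Bcl11a cannot be told apart.

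NRF2, the protein of Nfe2l2, is a transcription factor that is held low in unstressed cells because KEAP1 presents it to a ubiquitin ligase. Oxidants and electrophiles modify KEAP1, and NRF2 then pairs with a small MAF protein such as MAFG on antioxidant response elements of its target genes. BACH1 pairs with the same small MAF proteins on the same kind of element and represses, until heme binds it and takes it off the DNA. The system is therefore run by opposed proteins in a cell type that makes large amounts of heme, and much of its control acts on the proteins, which transcript levels do not show.

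The labels were checked on a few genes. The brightest of the 7 Bcl11a probe sets had intensities of 1286, 1419 and 1190 in the knockout mice and 1475, 1553 and 1450 in the control mice, with the position of its probes relative to the deleted part unknown (not given in the sources used here). Among the 6 dimmer Bcl11a probe sets, log2 changes lay between -0.40 and 0.32, and in 2 of them the knockout values all lay above the control values, so the probe sets disagreed in direction. Hbb-y, an embryonic beta-like globin gene, had intensities of 19266, 20104 and 19491 in the knockout mice, against 67.4, 71.6 and 80.9 in the control mice. The brightest probe set on all 6 arrays was that of the neutrophil gene S100a8, between 38113 and 39377 in the knockout mice and between 39661 and 40360 in the control mice. Transcripts known from neutrophils were thus among the brightest signals of the sort. In such samples, fewer cells of a type and less RNA per cell cannot be told apart.

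The stretches of DNA just before the gene starts are shown for the 5 members in which a letter match to an antioxidant response element was found, because NRF2 and BACH1 act through such elements. RefSeq's promoter table (GRCm38.p6) held 8 of the 10 members in 10 windows, without Gclc and Hmox1. The core searched was TGACNNNGC, and a longer form bound by NRF2 or BACH1 with a small MAF was searched as TGANTCAGC, each on both strands. The letters TGANTCA, recognised by AP-1 factors, were also searched and lie inside the longer form, and a longer form whose free base is C also matches the core. Each sequence below is the 250 bases before the start, read 5′ to 3′ on the gene's strand, with matches in capitals.
Srxn1, chr2:152105274-152105523, plus strand: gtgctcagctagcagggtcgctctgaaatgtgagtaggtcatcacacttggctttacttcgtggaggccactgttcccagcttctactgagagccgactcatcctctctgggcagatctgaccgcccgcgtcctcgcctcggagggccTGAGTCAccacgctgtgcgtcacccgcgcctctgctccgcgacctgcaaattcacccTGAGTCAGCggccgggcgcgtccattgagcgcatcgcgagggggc
Gclm, chr3:122245307-122245556, plus strand: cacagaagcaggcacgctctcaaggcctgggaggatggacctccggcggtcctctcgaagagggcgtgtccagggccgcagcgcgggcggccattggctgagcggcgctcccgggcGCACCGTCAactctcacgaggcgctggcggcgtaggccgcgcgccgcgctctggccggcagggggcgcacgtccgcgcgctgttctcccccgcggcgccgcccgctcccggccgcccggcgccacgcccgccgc
Txnrd1, chr10:82858956-82859205, plus strand: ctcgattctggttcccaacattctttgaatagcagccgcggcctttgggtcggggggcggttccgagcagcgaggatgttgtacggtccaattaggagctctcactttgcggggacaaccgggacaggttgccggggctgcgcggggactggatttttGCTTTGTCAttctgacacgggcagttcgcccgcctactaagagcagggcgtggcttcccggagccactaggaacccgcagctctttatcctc
Mafg, chr11:120633548-120633797, minus strand: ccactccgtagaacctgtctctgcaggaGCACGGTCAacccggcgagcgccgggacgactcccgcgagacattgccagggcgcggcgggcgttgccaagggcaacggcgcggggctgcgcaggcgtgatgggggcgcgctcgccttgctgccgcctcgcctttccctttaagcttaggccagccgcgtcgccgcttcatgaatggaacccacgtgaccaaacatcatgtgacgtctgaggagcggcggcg
Nfe2l2, chr2:75704664-75704913, minus strand: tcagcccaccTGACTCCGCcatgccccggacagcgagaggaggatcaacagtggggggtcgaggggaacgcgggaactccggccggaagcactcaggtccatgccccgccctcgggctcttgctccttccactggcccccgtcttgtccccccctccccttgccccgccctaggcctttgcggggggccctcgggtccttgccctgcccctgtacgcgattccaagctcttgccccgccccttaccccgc
Srxn1 was the one member with the longer form, TGAGTCAGC at bases 45 to 37 before the start, and it held a further AP-1 match, TGAGTCA, at bases 102 to 96. The core was matched in Gclm, in 1 of the 3 windows of Txnrd1, in Mafg and in Nfe2l2. Of all 32851 windows of this length, 10.2% held the core, 1.02% the longer form and 6.75% the AP-1 letters. The windows of Nqo1, Bach1 and Keap1 held none of these letters, and bases outside the windows were not searched.

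None of the 21 probe sets passed the test between knockout and control mice, a moderated test in limma with the adjusted p held under 0.05 over all 45037 probe sets. Over the whole array 0.140% of probe sets passed as rises and 0.00666% as falls. The values nonetheless lay to one side in the log2 change, knockout over control on log2(intensity + 16). This change was above 0 for 9 of the 10 genes in their brightest probe set, beside 9058 of all 18193 genes. By probe set it was above 0 for 17 of the 21, beside 21975 of all 45037. With each gene's probe sets averaged it was above 0 for 8 of the 10 genes, with Nfe2l2 and Hmox1 below. The median change of the 10 genes was 0.37, beside -0.001 over all 18193 genes in their brightest probe sets. At an unadjusted p under 0.05, 11 of the 21 probe sets had changes above 0, beside 7.21% of all probe sets, and 1 had a change below 0, beside 5.21%. In 13 of the 21 the knockout values all lay above the control values, beside 10.6% of all probe sets, and in 1 all lay below, beside 8.91%. By gene, in the brightest probe set, the knockout values all lay above in 8 of the 10, beside 12.4% of all genes, and all below in none, beside 9.22%. With an intensity trend and robust moderation of the variances, 7 of the 21 passed, all with changes above 0, beside 2.68% of all probe sets. The shares over the array include many dim probe sets. Both group means were under 60 in 20670 of the 45037, and in none of the members. In fits to the brightest 50% and 25% of probe sets, rises passed more often, in 697 of 22519 and 1319 of 11260. Shares without overlap at the members' brightness were not counted. The members were chosen with earlier results of these data known, and what that choice adds to their counts was not tested.

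**Figure D1:**
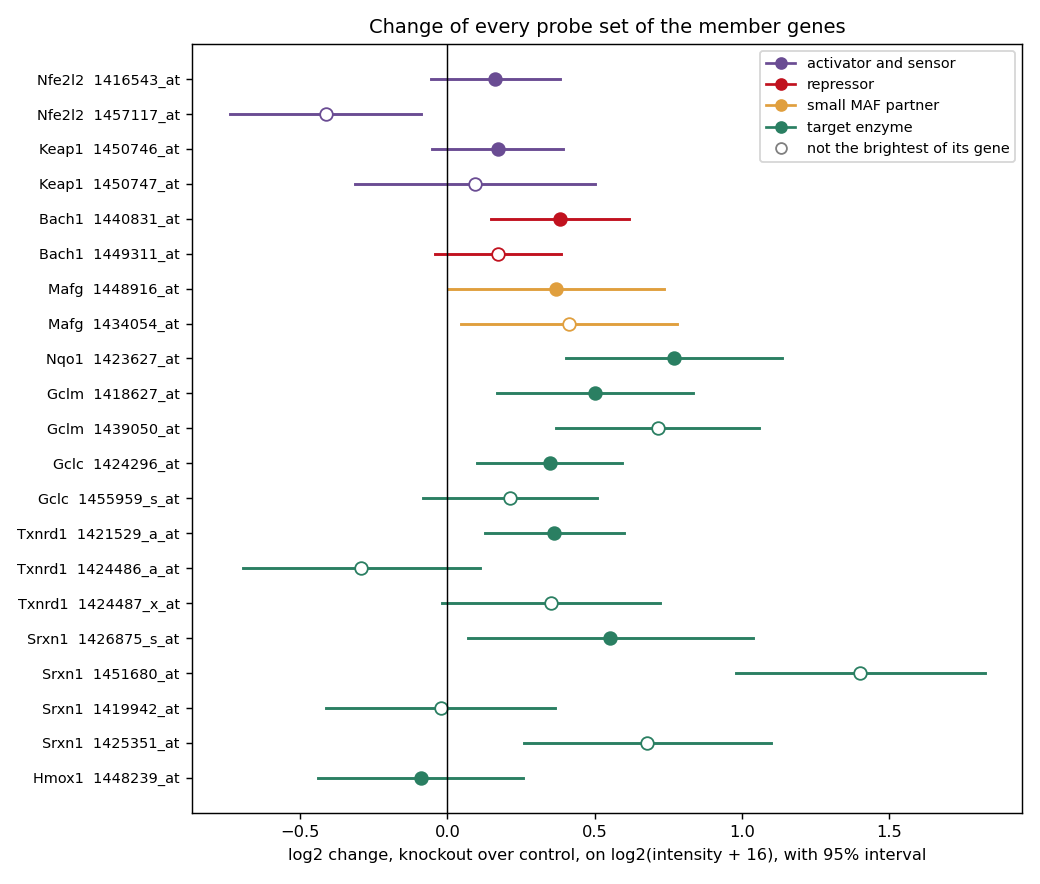
Log2 change of each of the 21 member probe sets (knockout over control, on log2(intensity + 16)) with its 95% interval, 3 mice per group; filled circles mark the brightest probe set of a gene and colours its role. Most circles lie to the right of 0, with the Srxn1 probe set at 1.40 farthest out, and those of Hmox1 and of 1 probe set each of Nfe2l2, Txnrd1 and Srxn1 lie to the left.

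Among the regulators, Bach1 had the lowest adjusted p. Its brightest probe set (1440831_at) had intensities of 1964, 2079 and 2116 in the knockout mice, against 1656, 1558 and 1498 in the control mice. All 3 knockout values were higher, with a log2 change of 0.38 ± 0.10 (SE, limma, adjusted p = 0.228). The dimmer Bach1 probe set had 589, 601 and 611 in the knockout mice and 531, 532 and 531 in the control mice, a log2 change of 0.17 (limma, adjusted p = 0.491). Both probe sets of the repressor gene thus had groups that did not overlap, in the same direction.

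Nfe2l2, the gene of the activator NRF2, was read by a pair of probe sets that disagreed. The brighter (1416543_at) had 2389, 2301 and 2370 in the knockout mice and 2142, 2120 and 2040 in the control mice, a log2 change of 0.16 ± 0.09 (SE, limma, adjusted p = 0.519). The dimmer (1457117_at) had 101, 102 and 76.8 in the knockout mice and 140, 129 and 119 in the control mice, a log2 change of -0.41 ± 0.13 (SE, limma, adjusted p = 0.313). The groups did not overlap in either probe set, yet the knockout values were the higher ones in the first and the lower ones in the second. The log2 ratio of the brighter over the dimmer probe set within each array averaged 4.45 ± 0.21 in the knockout mice and 3.87 ± 0.07 in the control mice (SD, n = 3 each; two-sided exact permutation p = 0.1, the smallest that 3 against 3 mice allow, and 0.12 adjusted over 6 such ratios chosen after the values were seen). What transcript each probe set reads was not tested, so no single direction is given for Nfe2l2.

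The ratio of Bach1 over Nfe2l2 within each array, each in its brightest probe set, was higher in every knockout mouse. The log2 ratio was -0.28, -0.15 and -0.16 in the knockout mice, against -0.37, -0.44 and -0.44 in the control mice (two-sided exact permutation p = 0.1). This ratio too was chosen after the values were seen, and its exact permutation p adjusted over the 6 ratios was 0.12. A ratio between probe sets says nothing of the amounts of the transcripts.

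Keap1, whose protein is the sensor that marks NRF2 for degradation, had intensities of 1274, 1224 and 1328 in the knockout mice, against 1133, 1130 and 1129 in the control mice, a log2 change of 0.17 ± 0.09 (SE, limma, adjusted p = 0.506). The groups did not overlap, and the control values lay within 4 units of each other. The dimmer Keap1 probe set had 121, 121 and 172 in the knockout mice and 134, 139 and 108 in the control mice, so its groups overlapped (log2 change 0.09).

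Mafg encodes one of the small MAF proteins with which NRF2 and BACH1 bind DNA. Its brightest probe set had 2066, 2494 and 2646 in the knockout mice and 2144, 1631 and 1803 in the control mice, a log2 change of 0.37 ± 0.15 (SE, limma, adjusted p = 0.400). Control mouse 1 lay above knockout mouse 1, so the groups overlapped, and they did so in the second probe set as well (log2 change 0.41, limma, adjusted p = 0.358).

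**Figure D2:**
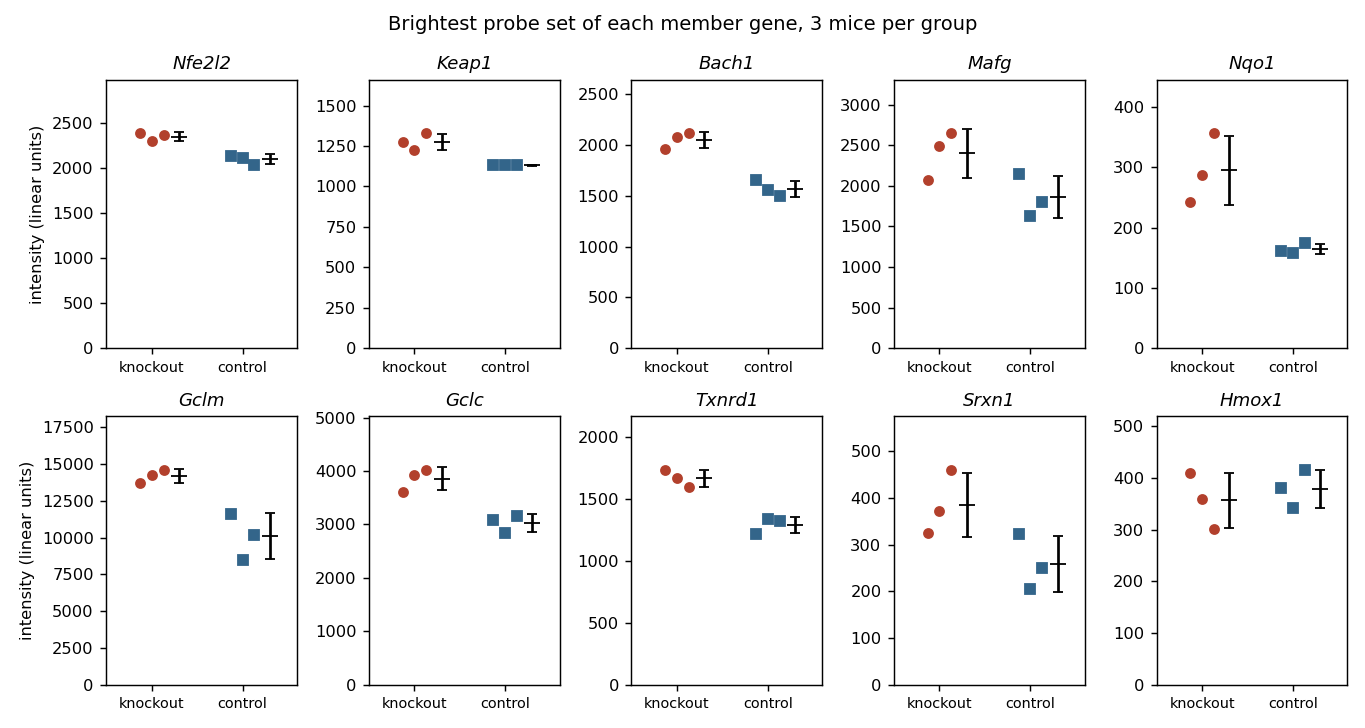
Intensity (linear units, each axis from 0) of the brightest probe set of each of the 10 genes in the 3 knockout mice (circles) and the 3 control mice (squares), with mean and SD beside each group. Knockout values lie above control values in 8 genes, and the groups overlap in Mafg and Hmox1.

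By gene, the 3 largest changes in the brightest probe set were those of the target enzyme genes Nqo1, Srxn1 and Gclm. Nqo1, a quinone reductase that is among the most used readouts of NRF2, was read by 1 probe set (1423627_at), with 242, 287 and 356 in the knockout mice and 162, 158 and 174 in the control mice. The groups did not overlap, and the knockout values were spread more widely. The ratio of mean intensities was 1.79 and the log2 change 0.77, with a 95% interval from 0.40 to 1.14 (limma, adjusted p = 0.163). Without 1 mouse in turn the change lay between 0.63, without knockout mouse 3, and 0.90, without knockout mouse 1.

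Srxn1 encodes sulfiredoxin, which restores peroxiredoxins that peroxide has overoxidised, and its 4 probe sets had log2 changes from -0.02 to 1.40. The second brightest (1451680_at) had 211, 213 and 323 in the knockout mice, against 84.4, 79.3 and 84.0 in the control mice. The mean of the knockout mice was 249 ± 64 and that of the control mice 82.6 ± 2.82 (SD, n = 3 each), a ratio of 3.02. Its log2 change of 1.40 ± 0.18 was the largest of the 21 probe sets, and its adjusted p of 0.0717 (limma) the lowest. The control mean lay near the array medians of 67.5 to 70.9, so the part of background in it is unknown. On log2(intensity + 1) the change was 1.55, and on log2(intensity + 64) it was 1.08. The brightest (1426875_s_at), whose suffix marks probes shared by several transcripts, had 324, 372 and 460 in the knockout mice and 324, 205 and 249 in the control mice. Its log2 change was 0.55 (limma, adjusted p = 0.351). The groups did not overlap, although knockout mouse 1 and control mouse 1 differed by less than 1 unit. The other pair were dim: one had a log2 change of 0.68 with groups that did not overlap, between 57.5 and 87.8 in the knockout mice and between 29.8 and 44.7 in the control mice, and the other a change of -0.02 with overlapping groups. Within each array the log2 ratio of the second brightest over the brightest averaged -0.61 ± 0.14 in the knockout mice and -1.46 ± 0.28 in the control mice (SD, n = 3 each; two-sided exact permutation p = 0.1, the smallest possible here). Like the other ratios it was chosen after the values were seen, and its exact permutation p adjusted over the 6 ratios was 0.12. The promoter of this gene is the one shown above with the longer element.

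Glutathione is built by glutamate cysteine ligase, whose catalytic subunit is the product of Gclc and whose modifier subunit is that of Gclm. The brightest Gclm probe set had 13687, 14283 and 14593 in the knockout mice, against 11637, 8479 and 10206 in the control mice, a log2 change of 0.50 ± 0.14 (SE, limma, adjusted p = 0.253). The second had 1751, 1629 and 1982 in the knockout mice and 1152, 916 and 1194 in the control mice, a log2 change of 0.71 ± 0.14 (SE, limma, adjusted p = 0.166). In both, the groups did not overlap.

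Gclc had 3614, 3933 and 4017 in the knockout mice and 3090, 2833 and 3160 in the control mice, a log2 change of 0.35 ± 0.10 (SE, limma, adjusted p = 0.278). Its second probe set had a log2 change of 0.21 (limma, adjusted p = 0.534), also without overlap. The within-array log2 ratio of Gclm over Gclc averaged 1.88 ± 0.03 in the knockout mice and 1.72 ± 0.17 in the control mice (SD, n = 3 each; two-sided exact permutation p = 0.3), and the groups overlapped.

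Txnrd1 encodes the cytosolic thioredoxin reductase, which keeps thioredoxin reduced with NADPH. Its brightest probe set had 1732, 1670 and 1597 in the knockout mice, against 1219, 1341 and 1318 in the control mice, a log2 change of 0.36 ± 0.10 (SE, limma, adjusted p = 0.243), without overlap. The other Txnrd1 probe sets were dim and did not move together, with log2 changes of -0.29 and 0.35, and their groups overlapped. The direction given for Txnrd1 therefore rests on 1 of its 3 probe sets.

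Hmox1, the inducible heme oxygenase that degrades heme and the target most closely tied to BACH1, was the 1 target gene with a change below 0 in its brightest probe set. Its 1 probe set had 409, 359 and 302 in the knockout mice and 381, 342 and 415 in the control mice. The groups overlapped, with a log2 change of -0.09 and a 95% interval from -0.44 to 0.26 (limma, adjusted p = 0.846). Without knockout mouse 3 the change was 0.02. The within-array log2 ratio of Nqo1 over Hmox1 averaged -0.27 ± 0.48 in the knockout mice and -1.13 ± 0.08 in the control mice (SD, n = 3 each; two-sided exact permutation p = 0.1), and the groups did not overlap. The pair was chosen after the values were seen, with the largest change among the brightest probe sets over the only one below 0. Over the 6 ratios the adjusted exact permutation p was 0.12. Hmox1 is also strongly expressed in the macrophages that erythroid cells mature around. Of 12 macrophage markers measured, 2 had knockout values wholly above the control values, near the 12.4% of all genes, and none wholly below, beside 9.22%. Their summed intensity was 11156 to 12074 in the knockout mice and 10169 to 11506 in the control mice, and their median log2 change was 0.02. Csf1r, the brightest, weighs most in this sum, with means of 4744 in the knockout mice and 3897 in the control mice. By gene, 6 markers had changes above 0 and 6 below. The dimmest macrophage marker, Siglec1, averaged 49.7, under the array medians of 67.5 to 70.9. The part of macrophage RNA in the Hmox1 signal was not tested.

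**Figure D3:**
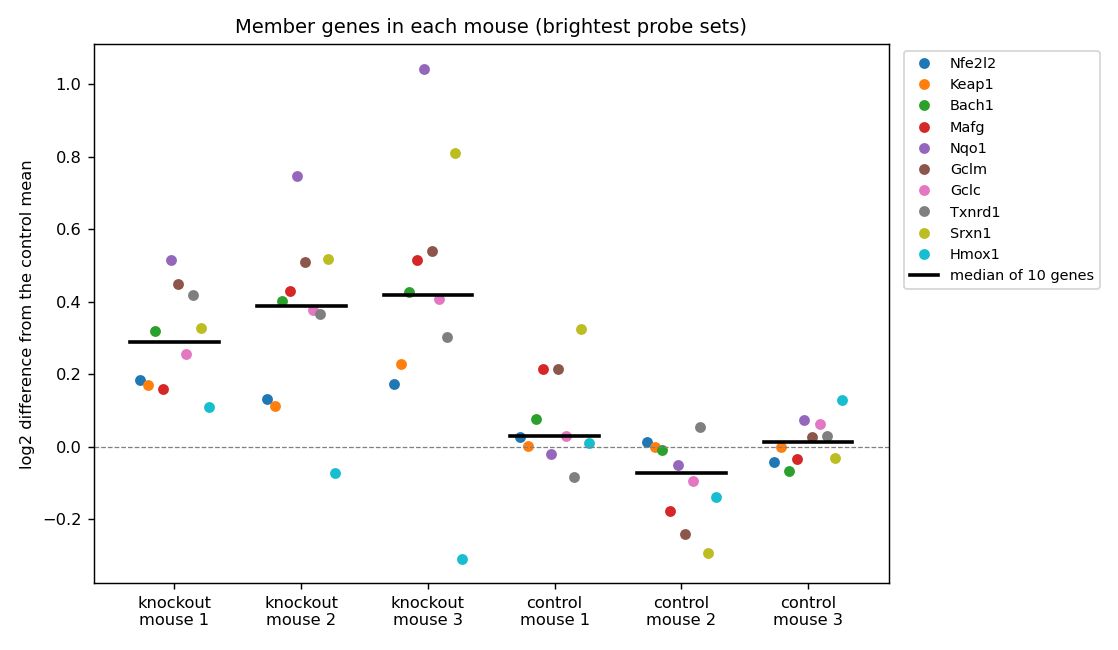
Log2 difference of each member gene (brightest probe set, colours) from its mean in the control mice, for each of the 3 knockout and 3 control mice, with the median of the 10 genes as a black bar. The medians are 0.29, 0.39 and 0.42 in the knockout mice and 0.03, -0.07 and 0.01 in the control mice, while Hmox1 is the lowest point in every knockout mouse.

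The members also differed among mice of 1 group. Knockout mouse 3 was the highest knockout in 7 of the 10 genes and knockout mouse 1 the lowest in 6. Control mouse 2 was the lowest control in 6 genes, and control mouse 1 the highest in 6. Gclm, Srxn1 and Mafg shared the spread of the control mice, with mouse 1 above the mean and mouse 2 below. Among the controls, markers of the erythroid lineage were also highest in mouse 1 and lowest in mouse 2: the median difference of 8 measured markers from the control mean was 0.20, 0.39 and 0.35 in knockout mice 1, 2 and 3, and 0.24, -0.23 and 0.03 in control mice 1, 2 and 3. The macrophage markers were likewise highest in control mouse 1 and lowest in control mouse 2, with 0.16, -0.04 and -0.07 in knockout mice 1, 2 and 3 and 0.14, -0.07 and -0.06 in control mice 1, 2 and 3.

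Of these 8 erythroid markers 6 had changes above 0, 5 had groups that did not overlap with the knockout higher, beside 12.4% of all genes, and the median change was 0.29. Their summed intensity was 83442 to 92035 in the knockout mice and 66975 to 81525 in the control mice. The dimmest, Hba-a1, averaged only 15.1, since the main globin probe sets read several genes and were not used. All 7 measured B cell markers had changes below 0, with a median of -0.37, and their summed intensity was 9187 to 12313 in the knockout mice and 13141 to 15620 in the control mice. Of 10 neutrophil markers 9 had changes below 0, with a median of -0.09, and their summed intensity was 193209 to 201048 in the knockout mice and 209496 to 210603 in the control mice. Over the array, 9135 of 18193 genes had changes below 0. Knockout values lay wholly below control values in 3 of the B cell markers and 7 of the neutrophil markers, beside 9.22% of all genes. None in either list lay wholly above, beside 12.4%. The part of this shift among cell types in the changes of the members was not tested.

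The wider pathway was read from 6 lists of related genes, each gene by its brightest probe set. No gene of any list passed the test (limma, adjusted p threshold of 0.05). With an intensity trend and robust moderation, changes above 0 passed in 3 of 13 partner and control genes, 1 of 11 glutathione genes, 4 of 13 thioredoxin and peroxide genes, none of 13 NADPH and detoxification genes, 2 of 8 heme breakdown and iron genes and 5 of 8 heme synthesis genes, beside 3.62% of all genes. No change below 0 passed in these lists, beside 0.605% of all genes. Among 13 partners and controllers of NRF2 and BACH1, 5 had changes above 0 at an unadjusted p under 0.05, beside 8.20% of all genes, and none a change below 0, beside 4.54%. The median was 0.13. Nfe2, the gene of the erythroid relative of NRF2, had 7648, 8362 and 8538 in the knockout mice and 6269, 4841 and 5557 in the control mice, a log2 change of 0.56 ± 0.13 (SE, limma, adjusted p = 0.201).

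Mafk, another small MAF gene, had 1490, 1679 and 1559 in the knockout mice and 1247, 880 and 1102 in the control mice, a log2 change of 0.56 (limma, adjusted p = 0.243). Sqstm1, which encodes the autophagy receptor p62 that binds KEAP1, had a log2 change of 0.51 (limma, adjusted p = 0.289), and Btrc, of a second ligase that marks NRF2, one of 0.53 (limma, adjusted p = 0.384). In Mafk, Sqstm1, Btrc and Nfe2, named for the smallest p of their list, the groups did not overlap. Over all 13 genes of the list, 6 had knockout values wholly above the control values and none wholly below. The shares of all genes were 12.4% and 9.22%.

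The glutathione genes beyond Gclm and Gclc lay to either side of 0. Of 11 measured, 4 had changes above 0 and 7 below, and the median was -0.06. At an unadjusted p under 0.05, 1 had a change above 0 and none below, near the shares of all genes, 8.20% and 4.54%. That 1 gene was Gstm5, a glutathione transferase, with 1653, 1536 and 1688 in the knockout mice, against 1272, 923 and 1016 in the control mice, a log2 change of 0.61 ± 0.14 (SE, limma, adjusted p = 0.209). Gsta4 and Gstm1, further transferases, had changes of -0.28 and -0.13, and Slc7a11, the cystine carrier that supplies glutathione synthesis, one of -0.14. Gsta4 averaged 42.8 in the knockout and 54.8 in the control mice, and Slc7a11 56.7 and 64.2. Both are dim and cannot be told from background without detection calls.

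Among 13 measured thioredoxin and peroxide genes, 4 had changes above 0 and 1 below at an unadjusted p under 0.05, beside 8.20% and 4.54% of all genes, and the median was 0.17. Txnrd2, the mitochondrial thioredoxin reductase gene, had 1567, 1754 and 1876 in the knockout mice, against 1176, 883 and 1094 in the control mice, a log2 change of 0.72 ± 0.14 (SE, limma, adjusted p = 0.163). The superoxide dismutase genes Sod1 and Sod2 had changes of 0.35 and 0.37, and Cat, of catalase, one of 0.35, and in all 3 the groups did not overlap. These genes and Txnrd2 were named for the smallest p of the list. Over its 13 genes, 6 had knockout values wholly above the control values and 2 wholly below, beside 12.4% and 9.22% of all genes.

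The 13 measured genes of NADPH supply and detoxification lay near the background, with a median of 0.03 and none at an unadjusted p under 0.05. Within them Taldo1, of the pentose phosphate pathway, had a log2 change of 0.22, Aldh1a1, an aldehyde dehydrogenase gene, one of 0.25, Me1, of malic enzyme, one of 0.35 and Ptgr1, a reductase gene, one of -0.19. Me1 was dim, averaging 72.5 in the knockout mice and 55.0 in the control mice. The lowest adjusted p of this list, that of Taldo1, was 0.452 (limma).

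The 8 measured genes of heme breakdown and iron had a median of 0.15, and 2 had changes above 0 at an unadjusted p under 0.05, beside 8.20% of all genes. Abcb6, which carries porphyrins across membranes, had 1111, 1274 and 1409 in the knockout mice, against 731, 632 and 733 in the control mice, a log2 change of 0.84 (limma, adjusted p = 0.0992). Blvra, of a biliverdin reductase that acts after heme oxygenase, had 982, 1020 and 1013 in the knockout mice, against 769, 784 and 827 in the control mice, a log2 change of 0.34 ± 0.09 (SE, limma, adjusted p = 0.250). Blvrb and the ferritin heavy chain gene Fth1 had changes of 0.37 and 0.19. Heme, the ligand of BACH1, is made by the enzymes of a further list, whose 8 measured genes had a median of 0.48. In 5 of them the change was above 0 at an unadjusted p under 0.05, beside the same 8.20%. The 4 with the smallest p were Alad at 0.71, Ppox at 0.63, Uros at 0.57 and Cpox at 0.48, all without overlap. Over all 8 genes, 5 had knockout values wholly above the control values and none wholly below, beside 12.4% and 9.22% of all genes.

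**Figure D4:**
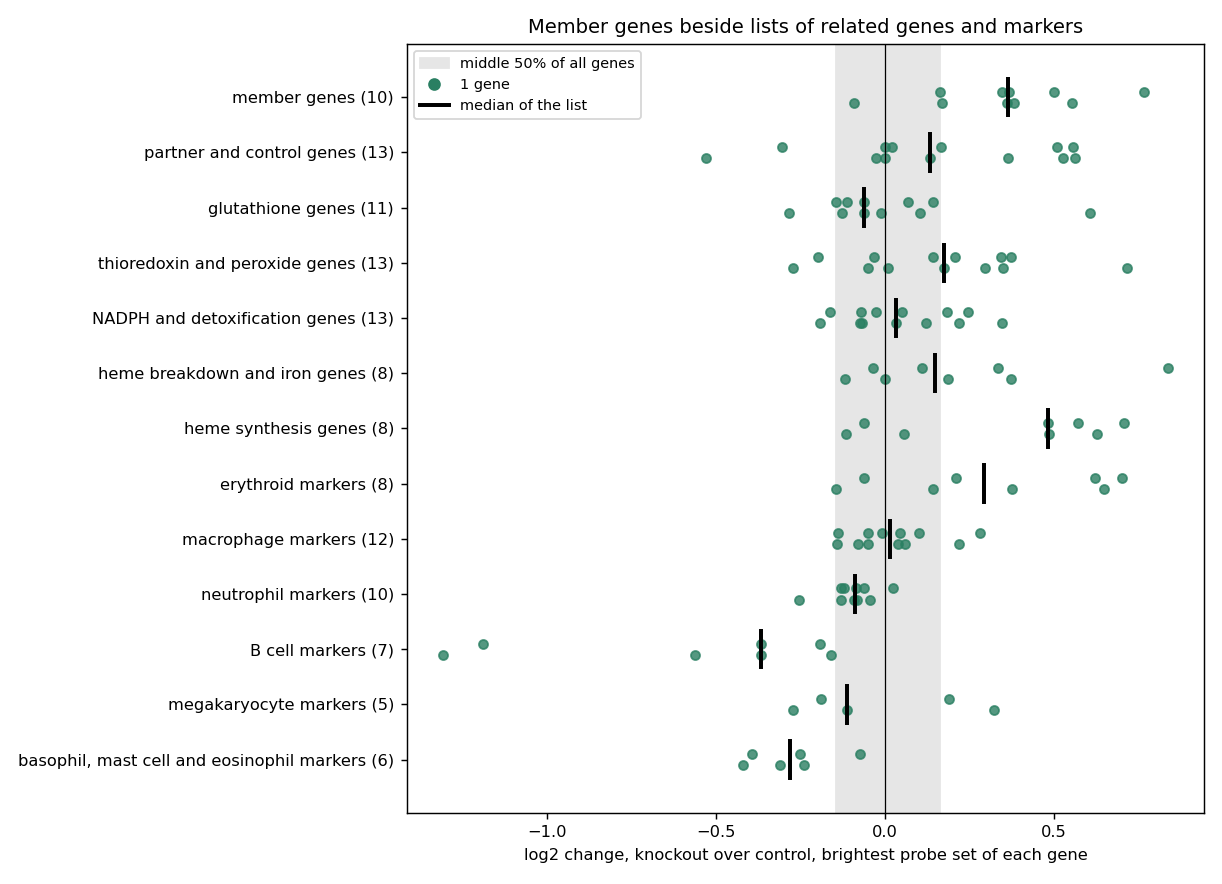
Log2 change (knockout over control) of the brightest probe set of each gene in the member list, the 6 related lists and the 6 marker lists, with the list's median as a black bar and the number of measured genes in brackets; the grey band holds the middle 50% of all 18193 genes. The medians of the members at 0.37, heme synthesis at 0.48, the erythroid markers at 0.29 and the thioredoxin and peroxide genes at 0.17 lie right of the band, those of the B cell markers at -0.37 and of the basophil, mast cell and eosinophil markers at -0.28 lie left of it, and the others lie inside.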

How the data were processed

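Total RNA was extracted with Trizol, labelled with biotin and hybridised to Affymetrix arrays, per the labels' protocols. The authors deposited 1 table of linear intensity values for 6 arrays; how probes were summarised, corrected for background and scaled is unknown (not given in the sources used here). Array medians lay between 67.5 and 70.9, and 775 to 874 values per array were exactly 1, so low values had been treated in some way. There were no detection calls.

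Values were used as log2(intensity + 16), which understates changes of dim probe sets, without renormalization, since log2 medians and interquartile ranges differed by at most 0.057 and 0.070. Knockout was set against control in R 4.3.3 with limma 3.58.1 (lmFit, eBayes without a trend, a two-sided test), and p-values of all 45037 probe sets were adjusted by Benjamini and Hochberg's method. By the array annotation, 34945 probe sets had 1 symbol, 932 had several and 9160 had none. Entrez IDs tied 34741 of the first kind to RefSeq. The brightest probe set with 1 symbol represented a gene. The labels number the mice separately in each group. Same-numbered mice did not deviate together (correlations of -0.03, -0.01 and -0.04 over probe sets), and the main test used no pairing. With 3 mice per group, these correlations cannot show whether same-numbered mice were handled together. The number of mice limits the precision.

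In simulated data for this contrast (45037 probe sets, 50 changed per size), the test recovered 0% of log2 rises of 0.5, 58% of 1 and 88% of 2, and 24%, 66% and 92% with an intensity trend and robust moderation. The changed probe sets were drawn from those above the median in the control mice, with noise from each probe set's estimated variance. Recovery for dim probe sets was therefore not simulated. The members and lists were chosen with earlier results of these data known. Named are all 10 members with every probe set and, of each of 6 pathway lists, the 4 genes with the smallest p; marker lists of 6 cell types are given in ranges. Megakaryocyte markers (5 measured) had a median change of -0.11, and basophil, mast cell and eosinophil markers (6 measured) one of -0.28.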

Additional observations from a re-analysis of the deposited data

How the results depend on the processing

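The members' count past the threshold, 0 of 21 probe sets in the report, was above 0 under 4 of 17 alternatives. It was 3 with a pseudocount of 64 and 3 of 19 in the brightest 50% of probe sets, in both cases Nqo1, 1 probe set of Gclm and 1 of Srxn1. Over all probe sets tested, rises numbered 508 of 45037 with that pseudocount and 697 of 22519 in the brightest 50%. The members' count was 5 of 12 in the brightest 25%, namely both of Gclm and 1 each of Bach1, Gclc and Txnrd1. All 11260 probe sets tested there held 1319 rises. With an intensity trend and robust moderation the members' count was 7 of 21, beside 2.68% of all probe sets as rises. In that last fit the adjusted p of Nqo1 was 0.0086 and that of the Srxn1 probe set 0.00036, and over 16 and 15 alternatives they ranged to 0.431 and 0.413. In the other 13 alternatives the count stayed at 0. All member changes that passed were above 0. Over the whole array the 66 probe sets past the threshold became 38 with a pseudocount of 1, 558 with one of 64, 839 and 1677 in the brightest 50% and 25%, 1445 with the trend and robust moderation, and 27 to 41 on leaving out 1 mouse. With the replicate number as a block, 14 passed and none of the members.

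The members' median change of 0.37 was 0.29 after quantile normalization and 0.28 when each gene's probe sets were averaged, which sets Nfe2l2 at -0.13; on leaving out 1 mouse it lay between 0.34 and 0.40. Of 335 values of single member probe sets under the alternatives, 7 changed sign, all near 0: the Srxn1 probe set at -0.02 became 0.056 with array weights and lay between -0.17 and 0.083 on leaving out 1 mouse, above 0 without knockout mouse 2 or control mouse 1 or 2. The dimmer Keap1 probe set lay between -0.060 and 0.17, below 0 without knockout mouse 3 or control mouse 3, and Hmox1 between -0.19 and 0.018, above 0 without knockout mouse 3. The cause of these differences was not tested. Dim probe sets, such as 2 of Srxn1, cannot be told from background without detection calls.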
